A study of Mus musculus with 6 samples.

Results

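Introns of the myosin heavy chain genes of heart muscle hold microRNA genes: Mir208a in Myh6, Mir208b in Myh7 and Mir499 in Myh7b. They were chosen by gene name, and all 3 of the 30638 features of the small RNA count table that carry those names are described here. Small RNA was counted in whole hearts of 3 control and 3 knockout mice on a C57BL/6 background. Control mice are titled L/L and carry a loxP-flanked exon of Elac2 without cre, although the genotype given for them is Elac2 +/+. Knockout mice are titled L/L, cre, with genotype Elac2 -/-, and the exon was removed by cre expressed from the muscle creatine kinase promoter. That promoter is active in heart and skeletal muscle cells, so other cells of the heart keep the gene. The sources used here state neither age nor sex. All library names begin with M4WHEART, a code that may hold either but is not explained. Elac2 encodes RNase Z, which cuts the 3′ trailer from precursor tRNAs, and the study compared non-coding RNAs of hearts with and without it. The genotype labels were not checked against Elac2 itself, whose mRNA is not analysed here.

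Myosin heavy chains are the motor proteins of the thick filament. In the adult mouse ventricle Myh6, the fast alpha chain, is the main form, while Myh7, the slow beta chain, is the main form before birth and is expressed again in stressed hearts. Each intronic microRNA is made from the transcript of its host, so Mir208a is known as a companion of Myh6, Mir208b of Myh7 and Mir499 of Myh7b. A microRNA pairs with target mRNAs mainly through its seed, bases 2 to 8 counted from its 5′ end, and miR-208a is known to act on the transcriptional coregulator Med13.

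The mature microRNAs are shown with the seed in capitals, as RefSeq gives them on GRCm38.p6, because what the 3 genes have in common is this stretch.
miR-208a-3p: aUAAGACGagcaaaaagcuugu
miR-208b-3p: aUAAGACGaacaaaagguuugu
miR-499-5p: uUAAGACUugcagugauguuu
The seeds of miR-208a-3p and miR-208b-3p are identical. With positions counted from the 5′ end and the miR-208a-3p base first, the 2 sequences differ by G10A, A16G and C18U and are identical at 19 of 22 positions. The seed of miR-499-5p differs from theirs by G8U alone, and 6 of its 7 bases are identical. Among 1738 mature microRNAs of the RefSeq table, UAAGACG was the seed of these 2 only and UAAGACU of miR-499-5p only. The 6 letters UAAGAC at bases 2 to 7 occurred in these 3 and in no other of the 1738.

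The hairpins, which the counted gene features span, are shown with the same mature arm in capitals.
Mir208a hairpin: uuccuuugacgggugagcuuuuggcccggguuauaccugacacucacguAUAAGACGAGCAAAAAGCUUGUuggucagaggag
Mir208b hairpin: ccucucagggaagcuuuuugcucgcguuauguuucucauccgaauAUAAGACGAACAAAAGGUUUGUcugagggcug
Mir499 hairpin: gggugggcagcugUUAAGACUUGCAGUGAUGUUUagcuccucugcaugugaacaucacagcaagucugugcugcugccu
The arm in capitals lies on the 3′ side of both Mir208 hairpins and on the 5′ side of the Mir499 hairpin. Counts per gene do not separate the arms, so a value below is the sum of all reads assigned to a hairpin. Read confusion between the genes was checked on the sequences. The longest run that the hairpins of Mir208a and Mir208b share is 10 bases, and none of the 3 hairpins shares more than 12 bases with another of the 1005 mouse hairpins in the table. Inserts were size-selected for 15 to 100 nt. Without a mismatch, no insert can therefore match 2 of these hairpins in the same sense over its whole length. Alignments with mismatches were not checked, and miR-208a-3p and miR-208b-3p are identical at 19 of 22 positions, so read confusion is not excluded.

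In GENCODE M21 (GRCm38, the assembly of the authors' mm10) Mir208a (ENSMUSG00000065432.1) spans chr14:54949060-54949142 on the minus strand. It lies in intron 29 of the 39-exon Myh6 transcripts, an intron of 542 nt. Mir208b (ENSMUSG00000077928.1) spans chr14:54975700-54975776 on the same strand, in intron 31 of the 41-exon Myh7 transcripts, an intron of 461 nt. The 2 hairpins are 26557 nt apart. Mir499 (ENSMUSG00000076312.1) spans chr2:155622880-155622958 on the plus strand, in intron 19 of the 42-exon Myh7b transcript, an intron of 481 nt. No other feature of the count table overlapped any of the 3 hairpins.

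Libraries held 13510061 to 16248673 counts, of which microRNA genes took 39.5% to 43.4% in control and 29.2% to 33.3% in knockout hearts. Levels are given as CPM, counts per 1e6 of a library size scaled by TMM, a method that aligns libraries on the features that change least. Of the 30638 features 1144 passed the filter on low counts and were tested, among them 312 microRNA genes and all 3 myosin intron genes. The labels do not say more about how the mice of a group relate to each other, so p-values measure the spread between these samples.

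With TMM, Mir208b, the Myh7 companion and the least abundant of the 3, was called higher in knockout hearts. Its call was lost under some other scalings and without certain control hearts, as given below. The values of Mir208a and Mir499 were lower in knockout hearts without passing the test. Of the 3 genes 1 was called higher and 0 lower by edgeR's quasi-likelihood test (Benjamini-Hochberg adjusted p under 0.05), where 23.2% of all tested features were called higher and 27.0% lower. Among tested microRNA genes 17.0% were called higher and 6.41% lower. The median log2 fold change was -0.01 over all 1144 features and 0.21 over the 312 microRNA genes. In whole-heart RNA, fewer cells of a type and less RNA per cell cannot be told apart.

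Mir208b gave 187, 206 and 141 counts in the control hearts, in the order of replicates 1 to 3 kept throughout, and 159, 246 and 313 in the knockout hearts. As levels these were 12.2, 11.6 and 7.70 CPM in control and 11.6, 19.5 and 23.6 CPM in knockout hearts. Knockout replicates 2 and 3 lay above every control heart, but knockout replicate 1 lay inside the control range, so the groups overlapped. The exact 95% Poisson interval of knockout replicate 1 was 9.83 to 13.5 CPM and that of knockout replicate 2 was 17.1 to 22.1 CPM, and these intervals do not overlap. Such intervals cover counting error only. The mean went from 10.5 ± 2.43 to 18.2 ± 6.10 CPM (SD, n = 3), a log2 fold change of 0.79 (SE 0.29, 95% interval 0.16 to 1.43, edgeR adjusted p = 0.0399), or 1.73 times higher. In order of log2 fold change Mir208b was number 35 from the top of 312 microRNA genes. The call was lost without control replicate 2 (log2 fold change 0.84, edgeR adjusted p = 0.0669) or control replicate 3 (0.58, 0.165), and without knockout replicate 1 the log2 fold change was 1.25 (adjusted p = 0.00155).

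Mir208a gave 818, 1097 and 937 counts in control hearts and 548, 583 and 585 in knockout hearts. Its levels were 53.2, 61.8 and 51.2 CPM in control hearts and 39.8, 46.1 and 44.0 CPM in knockout hearts. All knockout hearts lay below all control hearts, as was the case, in that direction, for 33.7% of all tested features and 12.8% of microRNA genes. The mean went from 55.4 ± 5.63 to 43.3 ± 3.22 CPM (SD, n = 3). The log2 fold change of -0.35 (SE 0.18, 95% interval -0.76 to 0.05) did not pass the test (edgeR adjusted p = 0.128).

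Mir499, the most abundant of the 3, gave 20261, 22061 and 18087 counts in control hearts and 11470, 12616 and 12812 in knockout hearts. Its levels were 1317, 1243 and 988 CPM in control and 833, 998 and 964 CPM in knockout hearts. The groups overlapped, because control replicate 3 lay just under knockout replicate 2. The mean went from 1183 ± 172 to 932 ± 87.1 CPM (SD, n = 3). The log2 fold change was -0.34 (SE 0.17, 95% interval -0.71 to 0.02) and did not pass the test (edgeR adjusted p = 0.108). The intervals of Mir208a and Mir499 hold 0 as well as falls of more than 0.7 on the log2 scale.

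**Figure D1:**
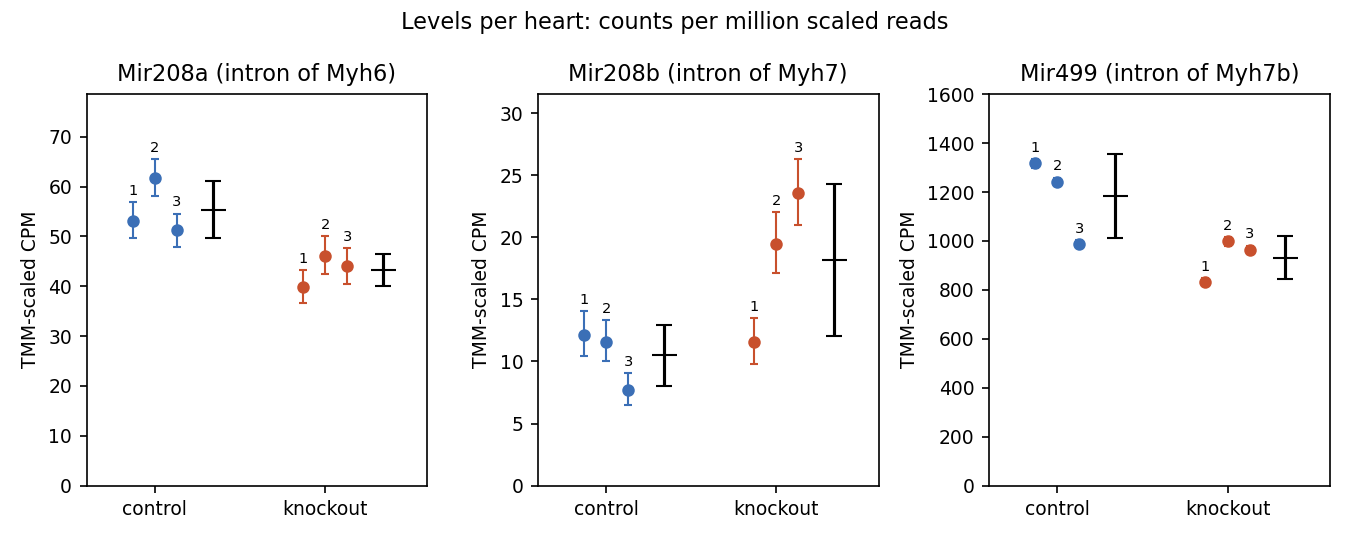
TMM-scaled CPM of Mir208a, Mir208b and Mir499 in each heart, numbered by replicate, with exact 95% Poisson intervals as thin bars and the group mean ± SD in black. Mir208b was 11.6 CPM in knockout replicate 1, inside the control range of 7.70 to 12.2, and 19.5 and 23.6 CPM in the others, while every knockout heart lay below every control heart for Mir208a.

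The order of the levels was Mir499, Mir208a, Mir208b in all 6 hearts, both as CPM per gene and per hairpin length. Per 100 nt of hairpin, control hearts had 1497 CPM of Mir499, 66.7 CPM of Mir208a and 13.6 CPM of Mir208b. Knockout hearts had 1180, 52.2 and 23.6 CPM per 100 nt in the same order. The ranges of neighbouring genes did not overlap in either group, but Mir208a and Mir208b lay closer together in knockout hearts. Ranked by mean CPM among all microRNA genes of the table, Mir499 was number 34 in control and 40 in knockout hearts, Mir208a 109 and 116, and Mir208b 163 and 150.

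How the reads of a library are scaled moved the log2 fold changes of all 3 genes together, and each of them had both signs under some scaling. Total counts alone moved the median of all features by -0.34, factors from microRNA genes by -0.18, factors from small nucleolar RNA genes by -0.85 and factors from small nuclear and ribosomal RNA genes by 0.55. Mir208b was called with TMM, with DESeq2's size factors (log2 fold change 0.77, adjusted p = 0.0241) and with the factors from small nuclear and ribosomal RNA (1.37, edgeR adjusted p = 0.0269). It was not called with total counts (0.44, edgeR adjusted p = 0.215) or microRNA factors (0.60, 0.105), and with the small nucleolar RNA factors its value was -0.05. Mir208a was called lower with total counts (-0.70, edgeR adjusted p = 0.00770), microRNA factors (-0.54, 0.0462) and small nucleolar RNA factors (-1.20, 0.000157), and its value was 0.20 with the small nuclear and ribosomal factors. Mir499 did the same, with -0.69, -0.52 and -1.19 in the called fits and 0.19 in the last. Relative to the median of all features the values hardly moved. This follows from the method, since a scaling shifts all features by about the same amount, and is no support for the values. Across TMM and these 4 other scalings Mir208b lay 0.79 to 0.83 above that median, Mir208a 0.33 to 0.35 below it and Mir499 0.33 to 0.34 below it. Leaving out a heart did move these distances. For Mir208b, Mir208a and Mir499 they were 1.30, -0.03 and -0.02 without knockout replicate 1, and 0.56, -0.46 and -0.51 without control replicate 3.

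**Figure D2:**
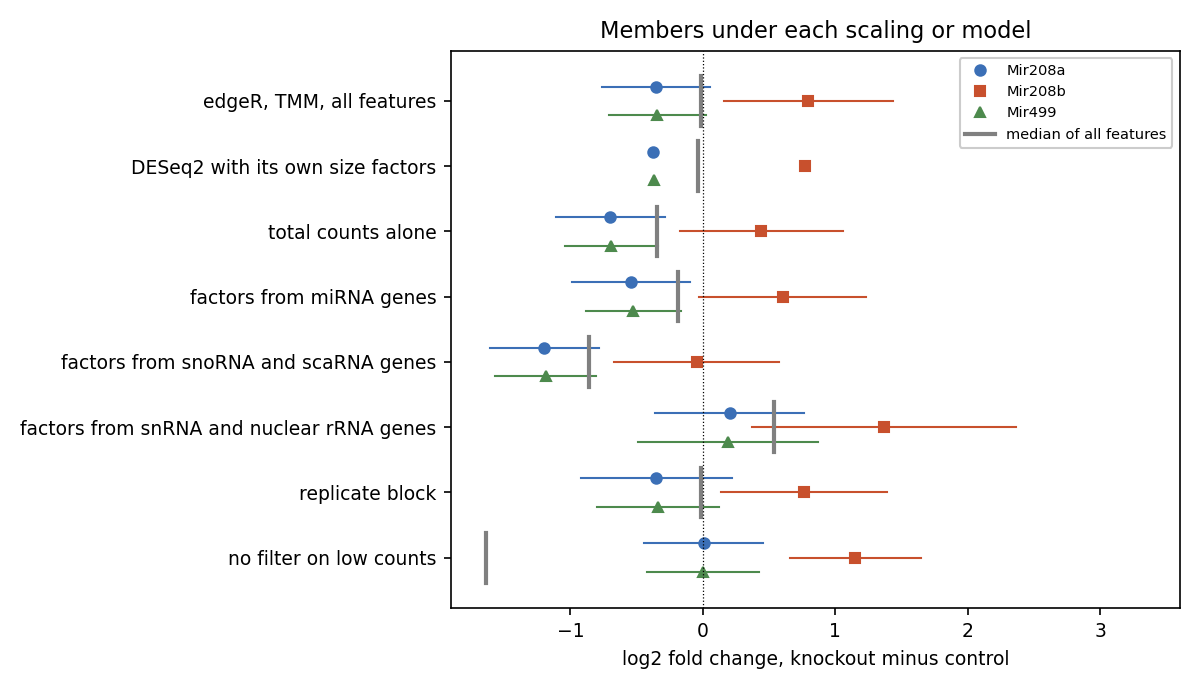
Log2 fold change (knockout minus control) of the 3 genes under each scaling or model, with 95% intervals where the edgeR fit gives them (none drawn for DESeq2) and the median of all features as a grey bar. The whole set moves sideways with the scaling. Mir208b has -0.05 with small nucleolar RNA factors and 1.37 with small nuclear and ribosomal RNA factors. Mir208b stays to the right of the others, which among the scalings follows from the method and is no support for the values.

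Ratios of counts within a heart do not depend on the library scaling. Control hearts had 0.229, 0.188 and 0.150 reads of Mir208b for each read of Mir208a, and knockout hearts had 0.290, 0.422 and 0.535. Every knockout heart, replicate 1 included, lay above every control heart. How often ratios of other gene pairs separate the groups was not counted, for this ratio or the next. The mean log2 ratio went from -2.42 ± 0.30 to -1.31 ± 0.44 (SD, n = 3), a difference of 1.11 or 2.16 times. The exact two-sided permutation test gave p = 0.1, the smallest that 3 against 3 allow, and 0.15 when adjusted over the 3 ratios. Without each heart in turn the difference ranged from 0.91 to 1.35.

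Against Mir499, Mir208b moved by nearly the same amount. The ratio of Mir208b to Mir499 was 0.00923, 0.00934 and 0.00780 in control and 0.0139, 0.0195 and 0.0244 in knockout hearts, again with no overlap. The log2 ratio differed by 1.10, or 2.14 times (exact permutation p = 0.1, adjusted 0.15, n = 3 per group). Mir499 and Mir208a kept their proportion within the spread of the hearts. There were 24.8, 20.1 and 19.3 reads of Mir499 for each of Mir208a in control and 20.9, 21.6 and 21.9 in knockout hearts, and all 3 knockout values lay inside the control range. Their log2 ratio differed by 0.01 (exact permutation p = 1, n = 3 per group), with SDs of 0.19 in control and 0.03 in knockout hearts. Without each heart in turn the difference ranged from -0.06 to 0.12.

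**Figure D3:**
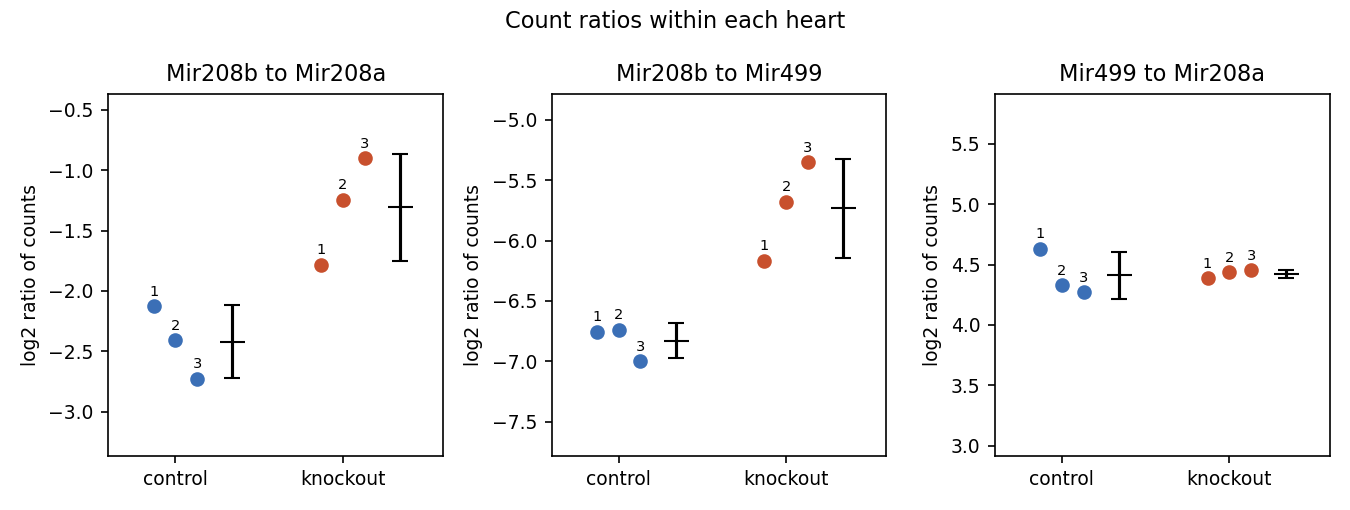
Log2 ratio of raw counts (0.5 added to each) for each pair of genes in each heart, numbered by replicate, with group mean ± SD in black; every panel spans 3 log2 units. Both ratios with Mir208b separate the groups, by 1.11 against Mir208a and 1.10 against Mir499, and the ratio of Mir499 to Mir208a differs by 0.01.

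Since miR-208a-3p and miR-208b-3p have the same seed, their genes were also added together, a sum chosen after the values were seen. Mir208b made up 18.6%, 15.8% and 13.1% of the summed counts in control hearts and 22.5%, 29.7% and 34.9% in knockout hearts. The highest control value had a 95% Wilson interval of 16.3% to 21.1% and the lowest knockout value one of 19.6% to 25.7%, so these 2 hearts are not separated by counting error. The summed level was 65.3, 73.4 and 58.9 CPM in control and 51.4, 65.6 and 67.6 CPM in knockout hearts. The groups overlapped in this sum, with means of 65.9 ± 7.26 and 61.5 ± 8.85 CPM (SD, n = 3). That overlap is tied to TMM. The sum was not taken under the other scalings, which moved the log2 fold changes of both genes, so it is not read as an unchanged total. Mir499 held 94.7% ± 0.51 of the reads of all 3 genes in control and 93.8% ± 0.37 in knockout hearts.

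**Figure D4:**
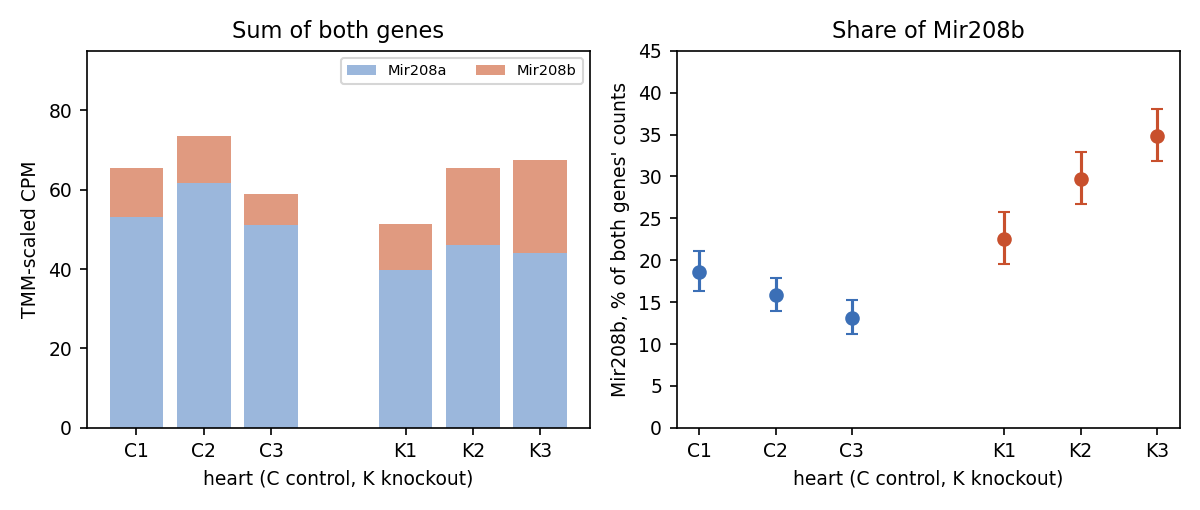
Left, TMM-scaled CPM of Mir208a and Mir208b stacked for each heart; right, the percent of their summed counts that belongs to Mir208b, with 95% Wilson intervals. With TMM, the only scaling used for the sum, the summed level overlaps between the groups (58.9 to 73.4 CPM in control, 51.4 to 67.6 in knockout). The Mir208b share is 13.1% to 18.6% in control and 22.5% to 34.9% in knockout hearts.

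Within the microRNA reads alone the groups did not overlap for any of the 3 genes, which also held for 43.6% of the 312 tested microRNA genes. Mir208b held 0.00282% ± 0.000507 of microRNA counts in control and 0.00505% ± 0.00126 in knockout hearts (SD, n = 3). Mir208a held 0.0150% ± 0.00106 and 0.0123% ± 0.000621, and Mir499 held 0.319% ± 0.0294 and 0.263% ± 0.00707. Each comparison gave p = 0.1 in the exact two-sided permutation test and 0.1 when adjusted over the 3 genes. As a share of all counts in place of microRNA counts, the difference for Mir208b went from 0.00223 to 0.00042 percentage points (exact permutation p = 0.3, n = 3 per group).

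In the authors' deposited table Mir208b had a log2 fold change of 0.83 (SE 0.31) with an adjusted p of 0.0320 by DESeq2, where 8.78% of all features given an adjusted p passed as higher. The values for Mir208a (-0.32, adjusted p = 0.194) and Mir499 (-0.31, adjusted p = 0.223) in the authors' deposited table were not called.

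Host transcripts and targets could not be set beside these values. Myh6, Myh7 and Myh7b had no row in the count table, nor did any of 7 genes listed as known targets of the family (Med13, Sox6, Purb, Sp3, Hopx, Cbx1 and Mstn). The table did hold Mhrt, a long non-coding RNA transcribed antisense to Myh7, whose gene ends 1350 nt from the Mir208b hairpin. Fragments of Mhrt gave 7, 16 and 9 counts in control hearts and 1, 1 and 0 in knockout hearts. The knockout hearts all lay below the control hearts, at counts too low for the filter. How often other features under the filter did so was not counted. Over each group, 2 counts in knockout against 32 in control gave a rate ratio of 0.0810, with an exact 95% counting interval of 0.00940 to 0.317. This interval treats the summed reads of a group as 1 sample and leaves out the spread between hearts. Without a filter the log2 fold change of Mhrt was -3.08 (edgeR adjusted p = 0.00909), where 7.65% of features were called lower. The median of all 9254 features in that fit was itself -1.64, and knockout libraries had 2995 to 3160 features with a count against 4664 to 6018 in control libraries. The authors' deposited table gives -3.57 for Mhrt (DESeq2 adjusted p = 0.0343), where 20.6% of all features given an adjusted p were called lower. Mhrt overlaps Gm29015 on the same strand and Myh7 on the opposite strand, and which of them its reads came from is uncertain.

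Other microRNAs of striated muscle had lower values, on the side of Mir208a and Mir499. Of the 7 other genes listed, 4 were tested, 2 fell and 0 rose, beside 27.0% of all tested features and 6.41% of microRNA genes called lower. The median of their log2 fold changes was -0.51. This list too was drawn up with earlier results of these data known, so its counts are a description and not a test. Mir1a-1, one of the genes of the muscle microRNA miR-1, had a mean of 62248 ± 8787 CPM in control and 41794 ± 5672 CPM in knockout hearts (SD, n = 3), and fell by 0.57 on the log2 scale (SE 0.14, edgeR adjusted p = 0.00420). Mir1a-2 went from 62354 ± 6652 to 40728 ± 5470 CPM and fell by 0.61 (edgeR adjusted p = 0.00183). Mir133a-1 and Mir133a-2, which encode miR-133a, had log2 fold changes of -0.45 and -0.44 (edgeR adjusted p = 0.141 and 0.143). The copies within each of these gene pairs make the same mature microRNA, so how reads were divided between the copies is uncertain. Neither Mir1a call was made with factors from small nuclear and ribosomal RNA genes (log2 fold changes 0.00 and -0.04), without any single knockout heart or without a filter on low counts. Of the remaining genes, Mir1b had at most 1 count in a library and Mir133b and Mir206 were at 0 in all 6.

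Of 19 listed genes for microRNAs linked to cardiac stress 16 were tested, of which 8 rose and 0 fell, beside 23.2% of all tested features and 17.0% of microRNA genes called higher. The median of their log2 fold changes was 0.70. The list was drawn up with earlier results of these data known, so its counts are a description and not a test. With small nucleolar RNA factors 3 rose and 7 fell. Mir34a, a target of p53, had a mean of 8.79 ± 4.25 CPM in control and 38.7 ± 10.5 CPM in knockout hearts (SD, n = 3), and rose by 2.13 on the log2 scale (SE 0.34, edgeR adjusted p = 0.000307). Mir222 rose from 47.1 ± 2.42 to 153 ± 30.9 CPM (log2 fold change 1.70, edgeR adjusted p = 3.53e-05). The lowest values in the list were -0.27 for Mir195a and 0.13 for Mir125b-2, which were not called. Mir208b, at 0.79, lay close to the median of the list.

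**Figure D5:**
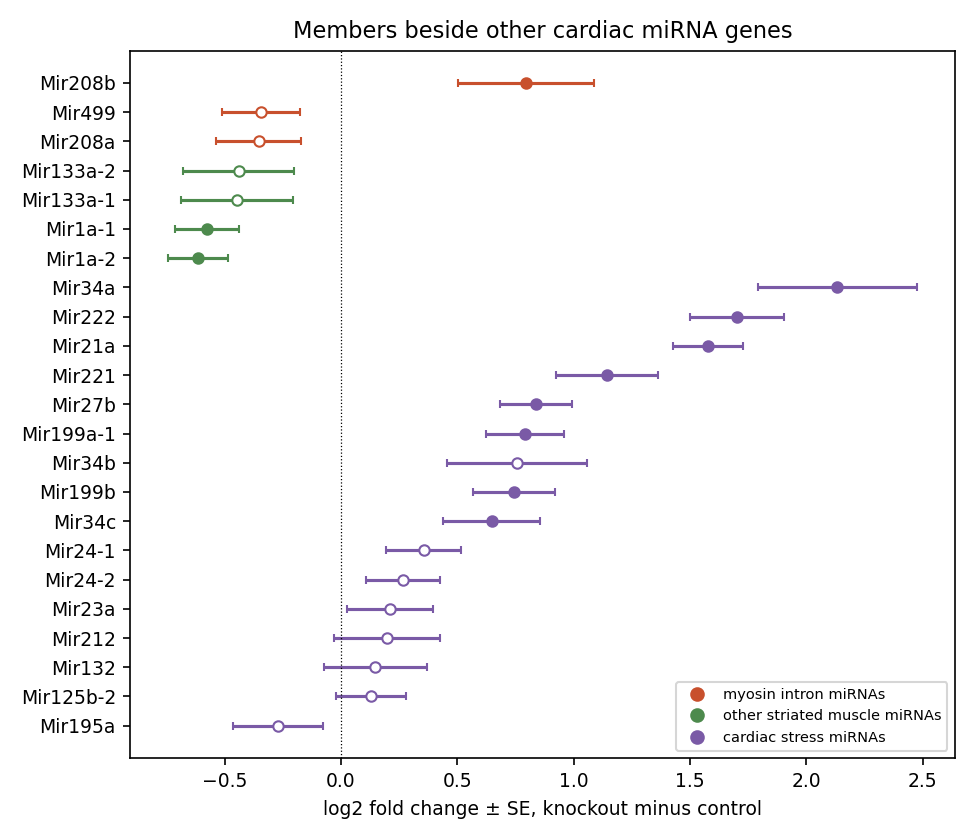
Log2 fold change ± SE (edgeR, TMM) of the 3 myosin intron genes, the 4 other tested striated muscle genes and the 16 tested cardiac stress genes; filled points passed the test. Mir208b at 0.79 sits among the stress genes, which run from -0.27 to 2.13, and Mir208a and Mir499 sit beside the muscle genes, which run from -0.61 to -0.44.

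For the heart label, the muscle genes Mir1a-1 and Mir1a-2 had the group means given above. They are genes of striated muscle, so they cannot tell heart from skeletal muscle. Mir206, typical of skeletal muscle, was listed at 0, but so were Mir133b, Mir214, Mir199a-2, Mir155 and Mir223. The counting settings behind these zeros are not stated, so they are not read as absence of the microRNA. Marker microRNAs of other cells moved with the groups in part. Beside them, 23.2% of all tested features were called higher and 27.0% lower, and 17.0% and 6.41% of microRNA genes. How often sums of other genes separate the groups was not counted. Of 4 fibroblast markers, all of them also in the stress list, 2 rose (Mir199a-1 and Mir199b) and Mir199a-2 and Mir214 were at 0 in every library. Their summed level was 1157 to 1628 CPM in control and 2218 to 2346 CPM in knockout hearts. Of 3 red cell markers Mir144 rose, Mir486, which muscle also makes, fell and Mir451a was not called (log2 fold change 0.40), and their sum overlapped between the groups (2644 to 3696 and 2205 to 2921 CPM). The sum for white cell markers was 36.7 to 54.2 CPM in control and 26.9 to 33.1 CPM in knockout hearts and came from Mir150 alone, since Mir155 and Mir223 were at 0 and Mir142a had no row under that name. The endothelial Mir126a (log2 fold change -0.13) and the smooth muscle Mir143 (-0.20) and Mir145a (-0.25) were not called. With total counts, which also called Mir208a and Mir499 lower, these 3 were called lower (edgeR adjusted p = 0.00402, 0.00313 and 0.0147), as were Mir126a and Mir143 with microRNA factors (0.0445 and 0.0375). With small nucleolar RNA factors the rises of Mir199a-1 (-0.05), Mir199b (-0.09) and Mir144 (-0.0051) were gone. The part of these cells in the values of the 3 genes was not tested.

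Likeness of pattern was measured as Pearson's r of log2 CPM over the 6 hearts, against 480 other features with a mean of at least 10 CPM. It is given as a description, since the hearts form 2 groups. Mir208a was most like Mir1a-1 (r = 0.984), Mir1a-2 (0.973) and Mir30a (0.966). Mir499 was most like Mir150 (r = 0.983), the mature leucine tRNA feature Leu-TAG-3 (0.962) and Mir100 (0.945). Mir208b was most like Mir32 (r = 0.962), Mir330 (0.961) and Mirlet7g (0.959), none of which was called (log2 fold changes 0.44, 0.48 and 0.17). Neither of the other myosin intron genes was among the 3 features most like a given one.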

How the data were processed

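Small RNA of 6 hearts was sequenced, and the files hold 1 library for each. The design text speaks of 4 technical replicates each without saying how these were combined. The submitters' processing notes name build mm10 and the tools DESeq2 1.16.1, featureCounts 1.5.1, Bowtie2 2.2.9 and cutadapt 1.14. Annotation, strand setting and treatment of multiple alignments: not given in the sources used here. The authors deposited raw counts per feature, which were the input of every test. The authors' deposited comparison gives, per its headers, a mean normalized signal, log2 fold changes with standard errors, a Wald score, p-values and adjusted p-values. Only the log2 fold changes, the adjusted p-values and, for Mir208b, the standard error are quoted. The deposited normalized counts were not used. There were 0 columns of other samples.

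Features were kept by filterByExpr (minimum count 10, minimum total 15) and tested by edgeR 4.0.16 (glmQLFit, glmQLFTest, TMM, no covariate, R 4.3.3), adjusted over all 1144 features, after the code was tested on simulated data. Ratios of counts (0.5 added) and shares were compared by exact permutation tests. Alternatives were DESeq2 1.42.0, 4 other scalings, no filter, a replicate block, other pseudocounts and denominators, and leaving out each heart. Sequences came from RefSeq (GRCm38.p6), where all 3 genes matched by symbol. Figures used matplotlib 3.10.9.

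The members, gene lists and named genes (the 3 genes in full, other striated muscle genes reaching 10 CPM in either group, the 2 highest and 2 lowest tested stress genes, and the 3 features most like each gene) were chosen with earlier results of these data known. Further genes named beside their lists were added after their values were seen.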

Additional observations from a re-analysis of the deposited data

How the results depend on the processing

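The direction of the ratios of Mir208b to Mir208a and to Mir499, and of all 3 shares of microRNA counts, held under every alternative run. With 3 against 3 their tests cannot go below 0.1. Because the groups did not overlap, leaving out a heart could not reverse these directions. The replicate block keeps the same difference, and the pseudocounts were small beside the counts. Such alternatives are therefore no support for the directions, which only other denominators of the shares could have changed. Log2 fold changes for Mir208a, Mir208b and Mir499 were -0.70, 0.44 and -0.69 with total counts, -0.54, 0.60 and -0.52 with microRNA factors, -1.20, -0.048 and -1.19 with small nucleolar RNA factors, 0.20, 1.37 and 0.19 with small nuclear and ribosomal RNA factors, and 0.00469, 1.15 and 0.00107 without a filter. Without each heart in turn they were -0.44 to -0.07, 0.58 to 1.25 and -0.49 to -0.06. The log2 ratio differences without each heart were 0.91 to 1.35 (Mir208b to Mir208a), 0.91 to 1.32 (Mir208b to Mir499) and -0.055 to 0.12 (Mir499 to Mir208a, negative without control replicate 2 or 3).

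The 574 calls became 1141 without a filter, where 9254 features were tested, and 486 to 908 without each heart (908 without control replicate 1). The 73 microRNA calls (53 higher, 20 lower) became 169 (13, 156) with small nucleolar RNA factors, 124 (120, 4) with small nuclear and ribosomal RNA factors and 121 (113, 8) without a filter, and 54 to 106 without each heart. Of the other striated muscle genes 4 were called with total counts, 4 with small nucleolar RNA factors, 0 with small nuclear and ribosomal RNA factors and 0 without a filter, and 0 to 4 without each heart. Of the cardiac stress genes 13 were called with small nuclear and ribosomal RNA factors, and 7 to 11 without each heart. The cause was not tested.

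Same-numbered hearts did not deviate together (r = -0.134, -0.0163 and -0.192), so numbers were not taken as pairs. With the replicate block there were 536 calls, Mir208b kept its call (0.76, edgeR adjusted p = 0.0390), and Mir208a (-0.35) and Mir499 (-0.34) had none.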
